A study of Zea mays with 10 samples.

Results

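The O2 binding map of maize endosperm held 6365 peaks, and 1354 of them (21.3%) were broad, meaning 250 bp or longer. They were selected on the deposited length of each peak, a measured value, so every other value of the same list is given below as a description with no test. The other 5011 peaks, all shorter than 250 bp, serve as the comparison. The tissue was endosperm at 15 days after pollination from self-pollinated greenhouse plants, either wild-type B73 (WT) or B73o2, which carries an o2 mutation in B73. Chromatin was immunoprecipitated with an anti-O2 antibody in 2 WT and 2 o2 libraries. Both genotypes thus share 1 inbred background, and the labels do not name the mutant allele. They number the replicates without saying which plants or ears they came from.

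Opaque-2 (O2), a transcription factor of the bZIP family, is active in the starchy endosperm, where it is known to activate storage protein genes, above all those of the 22-kDa alpha zeins, through DNA elements with an ACGT core. In chromatin immunoprecipitation (ChIP), fragments that carry the protein are pulled down and sequenced, and a peak is a stretch where fragments of the sample pile up above the background. The study set B73 against the mutant, but the labels do not say which libraries formed the background of the peak list. A factor that binds a short element usually leaves a peak about as long as a fragment, and longer peaks can arise where fragments spread over several sites. The length of a peak therefore says how far the enriched stretch reaches, not how firmly the factor is bound.

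The ChIP libraries held 25580850 to 38299434 reads, of which 33.1% to 37.7% mapped uniquely and 35.4% to 42.1% mapped to several places. WT replicates 1 and 2 had 14444794 and 10611258 uniquely mapped reads, and the o2 replicates had 11910627 and 8462481. The genotype labels were checked on the RNA libraries of the series, where the o2 gene (GRMZM2G015534) had 112, 86.1 and 163 RPKM in WT and 0.212, 0.173 and 0.254 RPKM in o2. The peak list gives 1 value per peak for the whole series and none per library, so peak heights cannot be compared between replicates or genotypes. It holds no expression value either, so the tissue label was not checked in the ChIP libraries.

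Most broad peaks were only a little longer than the threshold. Their median length was 291 bp (middle 50% from 265 to 336 bp), against 182 bp in short peaks. Of the broad peaks, 760 (56.1%) were under 300 bp, 457 (33.8%) were 300 bp to under 400 bp, 83 (6.13%) were 400 bp to under 500 bp, and 54 (3.99%) reached 500 bp or more. The longest spanned 1245 bp. No peak in the list was shorter than 160 bp, and 1044 peaks (16.4%) had exactly that length. Broad peaks covered 432951 bp, which is 31.4% of all bases under peaks.

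Peaks on either side of the threshold had similar values. The 119 peaks just inside it, at most 4 bp above 250 bp, had a median pileup of 16.2 and a median fold enrichment of 4.29. The 109 peaks up to 5 bp below it had medians of 17.1 and 4.05. Pileups ran from 7.6 to 81.8 just inside and from 8.56 to 72.2 just outside, so the ranges overlapped over most of their extent.

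Broad peaks lay on all 10 chromosomes in nearly the same proportion to the other peaks. Their number ran from 112 on chromosome 9 to 170 on chromosome 1, the chromosome with the most peaks of any length. As a share of the peaks of a chromosome, they made up 18.8% on chromosome 1 (95% exact binomial interval 16.3% to 21.5%) and 25% on chromosome 10 (21.1% to 29.3%), the lowest and highest values. On the other chromosomes the share was between 20.3% and 22.3%. All such intervals cover counting error only, and the intervals of chromosomes 1 and 10 overlap. With the end of the last peak taken as the length of a chromosome, broad peaks numbered from 5.63 per 10 Mb on chromosome 4 to 7.76 per 10 Mb on chromosome 7.

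**Figure D1:**
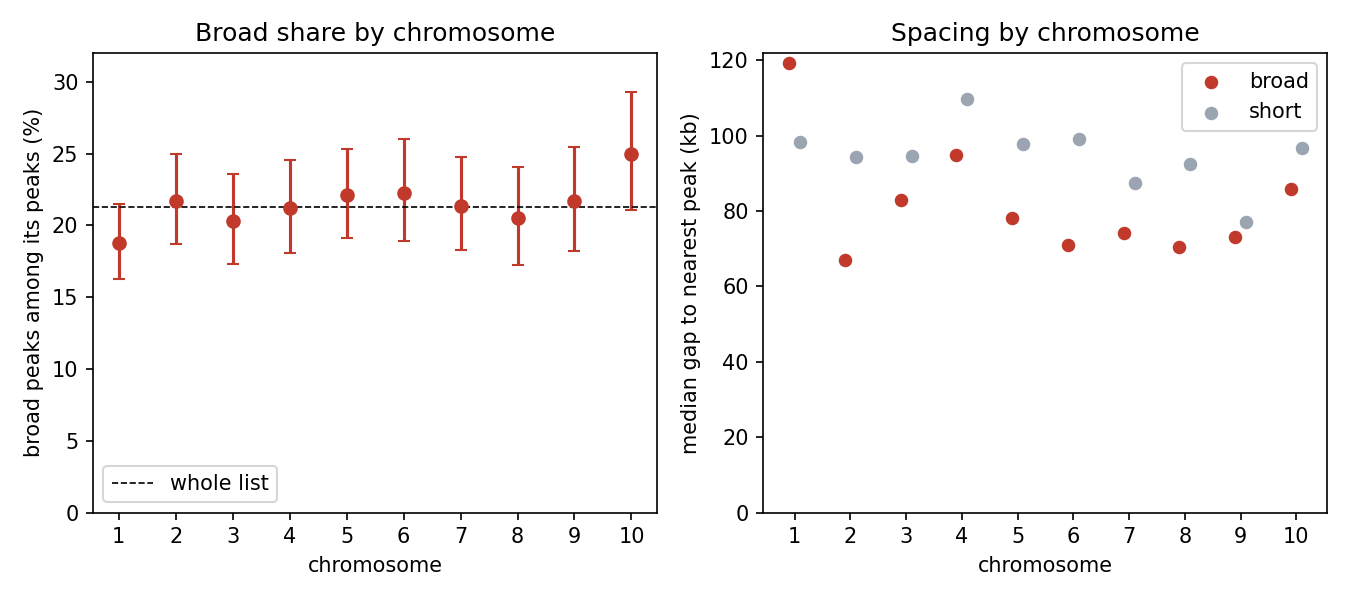
Left, broad peaks as a percentage of all peaks on each chromosome, with exact 95% binomial intervals and the whole list (21.3%) dashed; right, the median gap to the nearest peak of any length, in kb, for broad and short peaks of each chromosome. The shares lie close to the dashed line, and the broad median is the lower one on 9 of 10 chromosomes, with chromosome 1 as the exception.

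Along the chromosomes, broad and short peaks followed the same course, denser toward both ends than in the middle. When each chromosome was divided into 5 equal stretches up to its last peak, the outermost stretches held 24.7% and 23.1% of the broad peaks and the middle stretch held 15.7% (13.8% to 17.7%). For short peaks the same values were 24.0%, 23.6% and 15.6% (14.6% to 16.7%). In each of the 5 stretches, broad peaks made up between 20.3% and 21.8% of the peaks.

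The typical broad peak was slightly higher than the typical short one in pileup but not in fold enrichment. Pileup, the height of stacked fragments at the summit, had a median of 16.2 in broad peaks (middle 50% from 13.3 to 19.96) and 15.2 in short peaks (13.3 to 18.1). The deposited pileups move in steps of 0.951, so the medians differ by 1 step. The broad median was the higher one on 9 chromosomes and equal to the short one on chromosome 9. Fold enrichment, the ratio of the summit to the background set by the peak caller, had a median of 4.34 in broad and 4.52 in short peaks. By chromosome, this median was lower in broad peaks on 6 and higher on 4, so its direction was not shared. The median −log10 q-value was 3.89 in both classes.

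The upper ends of these distributions differed more than the middles. The highest 10% of broad peaks started at a pileup of 33.3 and a −log10 q-value of 8.86, against 21.9 and 6.66 for short peaks. The broad share of peaks was 17.2% at pileups under 15, 21.3% from 15 to under 20, 24.7% from 20 to under 30, and 44.3% from 30 to under 80. Among the 55 peaks with a pileup of 80 or more it was 38.2%. Length and pileup had a Spearman correlation of 0.24 over the 1354 broad peaks and 0.22 over the whole list. These are values of single peaks that share the same libraries, and a taller stack can cross a fixed threshold over more bases, so they describe the list and no more.

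The background behind each peak can be read back from the list. By default, the peak caller MACS2 forms the fold enrichment from the pileup plus 1 and the background plus 1, and solving this for the background gave whole numbers, within 0.01, in 49.7% of the peaks. The labels do not give the setting the authors used, so these backgrounds rest on that default. A further 13.4% were within 0.01 of the lowest value of the list, 1.32, and are counted below as standing at it. The median background was 3.0 in broad and 2.56 in short peaks, higher in broad peaks on all 10 chromosomes. Next to the threshold it did not differ. It was 3.0 both from 200 bp to under 250 bp and from 250 bp to under 300 bp, against 2.34 under 200 bp. At the lowest background stood 134 broad peaks (9.90%) and 722 short peaks (14.4%). A background of 10 or more was found at 81 broad peaks (5.98%) and 175 short peaks (3.49%), and it reached 58.0 in the broad and 105 in the short class.

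**Figure D2:**
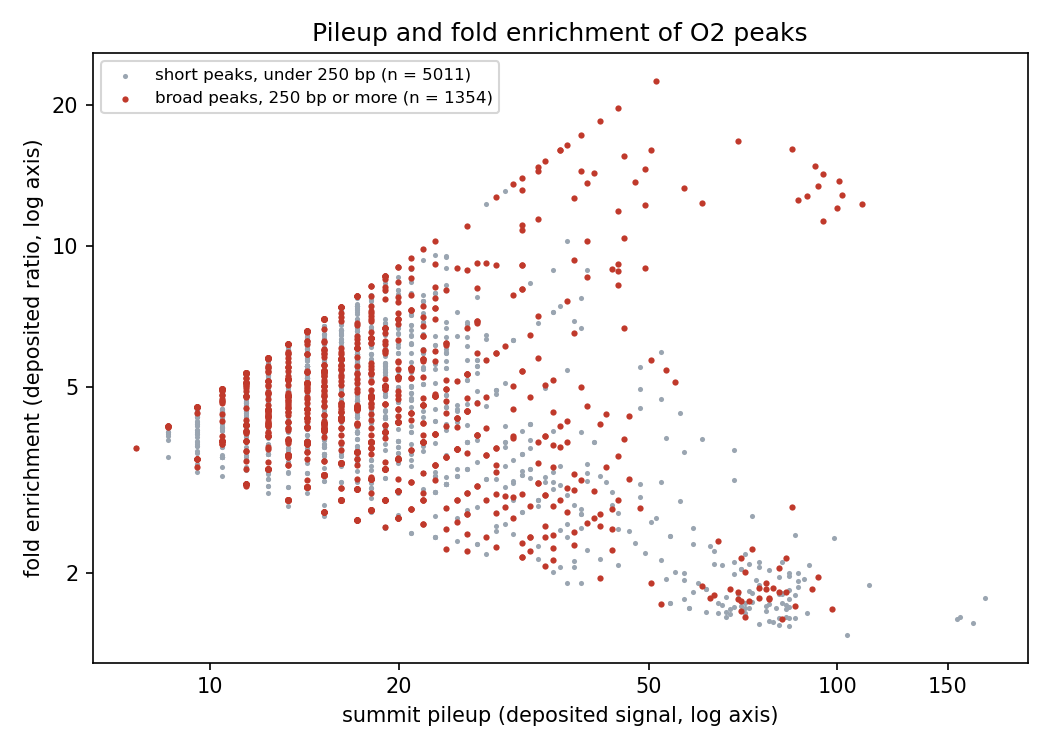
Fold enrichment against summit pileup for each peak, both on log axes, with short peaks in grey and broad peaks in red. At pileups of 80 or more the peaks form a group of 11 broad peaks at 11.3-fold or more and a group of 44 peaks, 10 of them broad, at 2.76-fold or less.

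Tall broad peaks fell into 2 groups with nothing between them. Of the 55 peaks with a pileup of 80 or more, 11 had a fold enrichment of 8 or more, and all 11 were broad, 397 to 1245 bp long, with −log10 q-values from 61.0 to 74.1. Their backgrounds, between 4.32 and 8.0, were above the 4.0 that bounds the lower 75% of broad peaks, but far below those of the other tall peaks. The other 44 had a fold enrichment under 3, and 10 of these were broad. Those 10 were up to 676 bp long, with a median of 352.5 bp, stood on backgrounds of up to 58.0 and had −log10 q-values from 1.59 to 10.8. The 34 short peaks of that height all belonged to the second group. Their 3 tallest members, such as chr8:146569736-146569918 with a pileup of 172, had folds between 1.56 and 1.77 over backgrounds of 97.0 to 105.

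The broad peak of highest pileup was chr5:189990711-189991420 (B73 RefGen_v3, 710 bp). Its pileup was 109, or 115 steps, its fold enrichment 12.3 and its background 8.0. Next came chr8:9649527-9650706 with a pileup of 102 and 12.8-fold, chr5:188262194-188263138 with 100.8 and 13.8-fold, and chr3:187570523-187571350 with 99.8 and 12.1-fold. The fifth in height, chr9:206187-206519, belonged to the other group, since its pileup of 97.9 stood on a background of 58.0 and gave 1.68-fold. At the low end, chr10:20768296-20768549 had a pileup of 7.6, or 8 steps, and 3.70-fold over the lowest background of the list.

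The 5 longest broad peaks were all tall. The longest, chr5:73179282-73180526 with 1245 bp, had a pileup of 95.1 and 11.3-fold enrichment. After it came chr3:85853241-85854441 (1201 bp, pileup 89.3), the chromosome 8 peak named above (1180 bp), chr7:1010440-1011477 (1038 bp, pileup 84.6) and chr8:10669240-10670249 (1010 bp, pileup 93.2). All 5 exceeded 11-fold. Of the 54 broad peaks of 500 bp or more, 29 (53.7%) had a fold enrichment of 8 or more, against 22 of 760 (2.89%) under 300 bp and 18 of 457 (3.94%) from 300 bp to under 400 bp. The median pileup of the 54 was 39.4, and in both of the shorter bands it was 16.2.

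High fold enrichment was more frequent in broad peaks as a class, but not next to the threshold. The list held 121 peaks at 8-fold or more, and 81 of them (66.9%, interval 57.8% to 75.2%) were broad, where 21.3% of all peaks were. At 12-fold or more, 36 of 38 were broad. Just inside the threshold 3 of 119 peaks (2.52%) reached 8-fold, and just outside it 5 of 109 (4.59%). By length, the share was 1.93% from 200 bp to under 250 bp and 2.89% from 250 bp to under 300 bp. It rose to 14.5% from 400 bp to under 500 bp and 53.7% at 500 bp or more. The highest fold enrichments were 22.5 at chr1:182854233-182854965, 19.7 at chr10:63073741-63074371, 18.4 at chr1:205716706-205717276, 17.2 at chr7:8470162-8470422 and 16.8 at chr5:74327053-74327546. Of these 5, all but the last stood on the lowest background of the list, with pileups of 39.0 to 51.3. The chromosome 7 peak was only 261 bp long, so a high fold did not require a long peak.

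Most of the tall broad peaks of 8-fold or more had a strong neighbour between 2 and 3 kb away. This window, and the pileup of 80 that 1 member had to reach, were chosen after the values were seen, so the pairs carry no test. Of the 11 peaks with a pileup of 80 or more at 8-fold or more, 9 had a neighbour of at least 8-fold across a gap of 2238 to 2497 bp, and in 8 of these the gap was 2417 bp or more. The 5 broad peaks of highest fold did not share this spacing, with nearest peaks 452, 31765, 2559, 404496 and 297 bp away. The 9 pairs lay on chromosomes 3, 4, 5, 7 and 8, with 3 each on chromosomes 3 and 5. In the whole list, 62 of 6355 gaps between neighbours (0.976%) were between 2000 and 3000 bp. That share counts gaps of any size rather than peaks, so it is no base rate for the 9 of 11. Of all these gaps, 143 after a broad and 381 after a short peak were 10 kb or less.

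The choice of pairs set the taller member at a pileup of 80 or more, so the members' inequality is in part given by it. The taller peak had a pileup of 84.6 to 109 over a background of 4.32 to 8.0, and the lower one had 35.2 to 50.4 over a background of 2.21 to 4.62. The ratio of their pileups had a median of 2.06 and ran from 1.72 to 3.11. The taller member came first along the chromosome in 5 pairs and second in 4, so the pairs shared no single order. Fold enrichment was 12.1 to 16.1 in the taller members and 8.26 to 16.0 in the lower ones, and in the chromosome 4 pair the lower member had the higher fold, 16.0 against 12.5. Another pair in the same window, on chromosome 1, had no member of that height and a pileup ratio of 1.07.

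Both members were broad in 7 of the 9 pairs. In the remaining pairs, both on chromosome 5, the lower member was short, with 231 and 246 bp. Each of those short members had another peak of at least 8-fold on its far side, across gaps of 237 and 117 bp. The whole pair, from outer edge to outer edge, spanned 3392 to 4450 bp, and the summits were 2900 to 3520 bp apart. Gaps were part of the choice and summit distances were not, so the ranges of both are not compared. The list does not say whether reads that map to several places were used, and their part in these pairs was not tested.

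**Figure D3:**
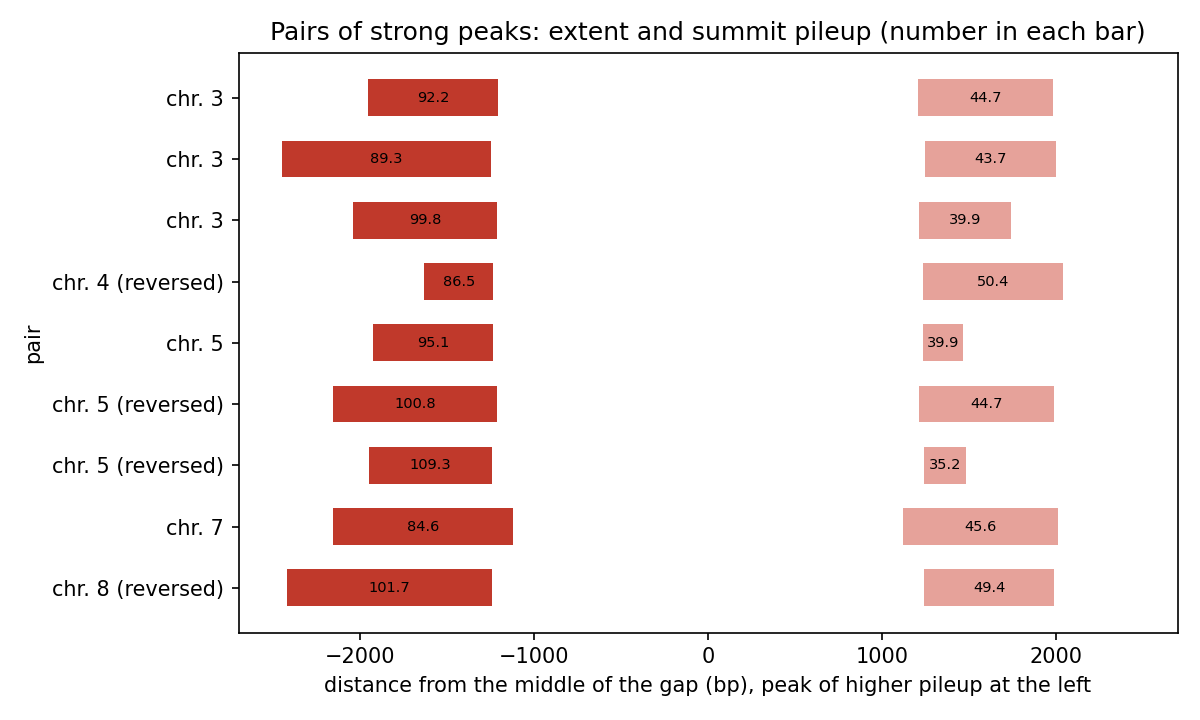
Extent of the 9 pairs of strong peaks, drawn from the middle of the gap in bp, with the taller member (dark) at the left and reversed pairs turned round. Numbers in the bars are summit pileups; the inner edges line up by the choice of gap and the centring, and the taller members reach 84.6 to 109.

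The remaining 65 broad peaks of 8-fold or more were spread over all 10 chromosomes. Their pileups ran from 18.1 to 95.1 with a median of 31.4, and 23 of them stood on the lowest background. Another peak lay within 10 kb of 31 of these 65 (47.7%). They include 2 of the tall peaks. One is the longest peak of the list, which lay 6408 bp from a 940 bp peak of 14.6-fold. The other, chr8:10669240-10670249, had no other peak within 455340 bp.

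As a class, broad peaks had summits farther from the midpoint, also in proportion to length, but the proportion was not greater in those under 300 bp. The median distance was 52.5 bp in broad and 23 bp in short peaks, or 16.9% and 12.2% of the peak length. For the 760 broad peaks under 300 bp the median proportion was 11.5%. Just inside and just outside the threshold it was 10.4% and 10.7%. The distance in bp was greater in broad peaks on all 10 chromosomes, and the proportion on 9, with chromosome 4 as the exception. The summit fell in the central 33.3% of the peak in 666 of 1354 broad peaks (49.2%, interval 46.5% to 51.9%) and in 3235 of 5011 short peaks (64.6%, 63.2% to 65.9%).

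**Figure D4:**
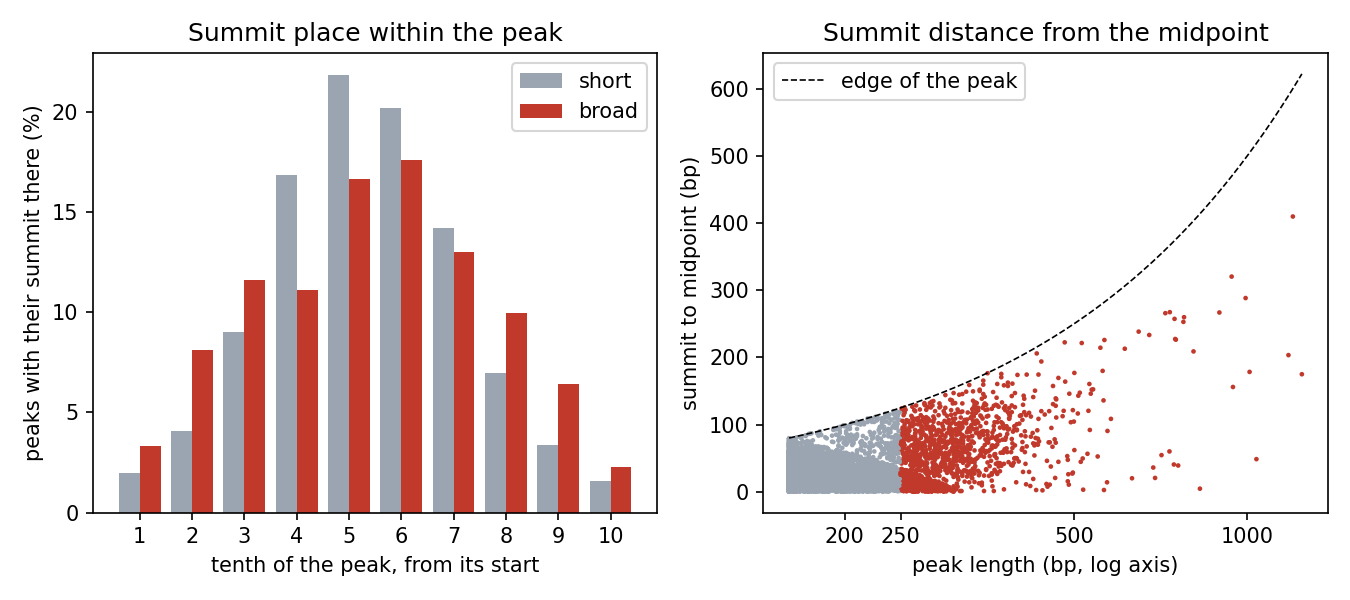
Left, the percentage of broad and short peaks whose summit falls in each 10% stretch of the peak, counted from its start; right, the distance of the summit from the midpoint in bp against peak length on a log axis, for each peak, with the edge of the peak as a dashed line. Broad summits are spread more widely, with 11.6% of them in stretch 3 and 11.1% in stretch 4.

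Summits fell about equally often on both sides of the midpoint in broad peaks. The summit lay before the midpoint in 687 peaks (50.7%) and after it in 660 (48.7%). Within 20 bp of an edge were 44 broad summits (3.25%) and 221 short ones (4.41%). In proportion to length the order was the other way, since the first and last 10% of the peak held 5.61% of broad summits (interval 4.45% to 6.98%) and 3.55% of short ones (3.06% to 4.10%). The summit nearest to an edge, in proportion to length, was the last base of chr5:80597961-80598314. In chr2:526479-526732 and chr9:19963824-19964074 it was 1 bp from the edge. All 3 had folds of 1.59 to 2.86.

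In proportion to length, summits lay farther out in peaks of 300 bp or more, without a steady course over the bands. The median distance was 13.4% of the length in peaks under 200 bp, 10.5% from 200 bp to under 250 bp and 11.5% from 250 bp to under 300 bp. It was 20.8%, 19.5% and 23.5% in the 3 longer bands. Length and this proportion had a Spearman correlation of 0.25 over broad peaks and 0.015 over all 6365. Among peaks of 300 bp or more, the summit was in the central 33.3% in 36 of 59 at 8-fold or more (61.0%, interval 47.4% to 73.5%) and in 183 of 535 under 8-fold (34.2%, 30.2% to 38.4%). Over the 1354 broad peaks, length and distance in bp had a Spearman correlation of 0.44, where a longer peak also leaves more room.

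As a class, broad peaks had slightly closer neighbours than short ones, but not next to the threshold. The gap between the edges of a peak and the nearest peak of any length had a median of 83101 bp for broad peaks (middle 50% from 18373 to 180944 bp) and 94858 bp for short peaks (27721 to 214352 bp). The broad median was the smaller one on 9 chromosomes, while on chromosome 1 it was 119344 bp against 98313 bp. Within 10 kb, 255 broad peaks (18.8%, interval 16.8% to 21.0%) and 748 short peaks (14.9%, 14.0% to 15.9%) had another peak. By chromosome, this share was higher in broad peaks on 8 and lower on 2.

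The difference was smaller without the strongly enriched peaks, and close neighbours were most frequent among the longest. Without the peaks of 8-fold or more, an alternative chosen after seeing the data, 15.9% of the broad and 14.6% of the short peaks had a neighbour within 10 kb. Here gaps were measured anew, so the removed peaks did not count as neighbours either. By length, the share was 16.7% under 300 bp, 17.7% from 300 bp to under 400 bp, 25.3% from 400 bp to under 500 bp and 48.1% (26 of 54, interval 34.3% to 62.2%) at 500 bp or more. The median gap of the 54 longest was 13504 bp. Short peaks of 200 bp or more had a share of 17.4% and a median gap of 86584 bp, much like the 16.7% and 87366 bp of broad peaks under 300 bp. Within 5 bp of the threshold the shares were 16.0% inside and 16.5% outside, with median gaps of 94581 and 84296 bp.

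**Figure D5:**
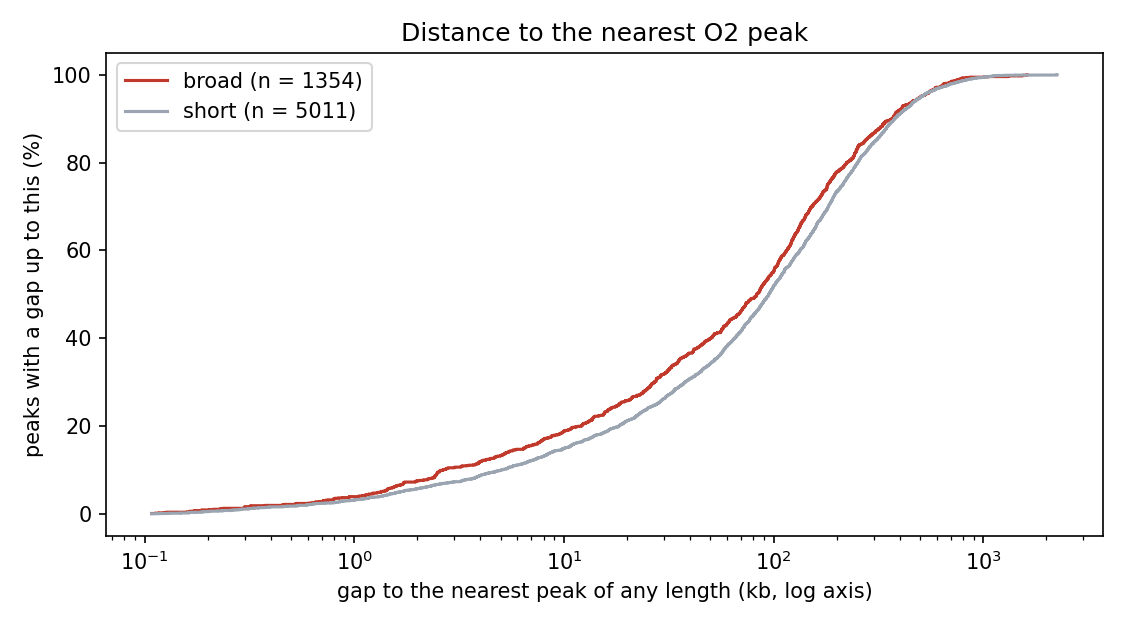
Cumulative percentage of peaks by the gap to the nearest peak of any length, in kb on a log axis, for 1354 broad and 5011 short peaks. The broad curve lies above the short one at gaps of 1, 10 and 100 kb.

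At every distance counted, the next peak was more often broad after a broad peak than after a short one, with overlapping intervals. The difference was not tested. The peak that followed a broad peak on the chromosome was itself broad in 314 of 1351 cases (23.2%, interval 21.0% to 25.6%), and after a short peak in 1039 of 5004 cases (20.8%, 19.6% to 21.9%). These intervals overlap, and the first holds the 21.3% broad share of the whole list. When the gap was 10 kb or less, these shares were 40 of 143 (28.0%, 20.8% to 36.1%) and 86 of 381 (22.6%, 18.5% to 27.1%), with intervals that overlap. At 100 kb or less they were 123 of 464 (26.5%, 22.5% to 30.8%) and 327 of 1573 (20.8%, 18.8% to 22.9%). At 5 kb or less they were 31 of 99 (31.3%, 22.4% to 41.4%) and 60 of 253 (23.7%, 18.6% to 29.4%). In each, the intervals overlap, and the one after a broad peak lies above 21.3%. That share is of the whole list and not of peaks with a near neighbour, so it is no base rate here. At 5 kb or less, the interval after a broad peak also holds the 23.7% found after a short one. At 1 kb or less the shares were 21.2% of 33 and 19.2% of 73. From a broad peak to the nearest other broad peak the median gap was 434795 bp, and 92 broad peaks (6.79%) had one within 10 kb.

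The closest broad neighbours were of unlike kinds. The smallest gap between 2 broad peaks, 164 bp, separated chr6:117317478-117317763 (pileup 31.4, 9.09-fold) from chr6:117317928-117318290 (pileup 45.6, 15.5-fold). A gap of 230 bp lay between chr3:35849009-35849267 and chr3:35849498-35849915, with modest folds of 3.18 and 4.29. Next came chr4:11130404-11130833 and chr4:11131133-11131419, with pileups of 63.7 and 62.7 but only 1.80-fold and 1.77-fold over backgrounds of 35.0 each. The most isolated broad peak, chr4:211289226-211289496, was 1625506 bp from any other and had a pileup of 10.5. Next in isolation were chr2:117633368-117633670 and chr2:119174826-119175119, each other's nearest neighbour at 1541155 bp.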

How the data were processed

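The deposited peak list is 1 file for the whole series on B73 RefGen_v3, with positions counted from 1. Its columns, deposited by the authors, hold for every peak a start, an end, a summit, the pileup signal at the summit, a fold enrichment ratio and, per the file headers, the −log10 of a p-value and of a q-value. Per the submitters' processing notes the tools include Bowtie2 2.1.0, bedtools 2.17.0 and MACS2 2.1.0.20140616, without roles. Whether replicates were pooled, and which reads were used, is not stated in the labels. Read counts by mapping class and the RPKM of the o2 gene were used as deposited by the authors.

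Gaps are the bases between neighbouring peak edges, and backgrounds are (pileup + 1) / fold − 1. Shares carry exact Clopper-Pearson 95% intervals. Python 3.11.15, pandas 2.3.3 and scipy 1.17.1 were used. Gaps, summit distances to the edge, backgrounds and length classes were checked on simulated data, and the other steps were not. The simulated folds were made with the formula above, so the check does not bear on its fit to these peaks. Peaks of 1 list are not replicates, so no test was run. Members, thresholds and the alternatives were chosen with earlier results of these data known. The named broad peaks are the 5 highest, 5 longest, 5 of highest fold, the 3 closest pairs, the 3 most isolated, the 3 with a summit nearest an edge and the lowest, besides the 3 tallest short peaks; the 8-fold pairs were added after their values were seen. No genome of this build was used here, so no peak was linked to a gene or a sequence.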

Additional observations from a re-analysis of the deposited data

How the results depend on the processing

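Of 44 alternatives, 23 left a value within its counting interval (for numbers of peaks, within 1.5 times), 21 moved it and none turned the order of broad and short peaks in a value that differed beyond that interval. Among the 23, keeping 1 entry per start and end, or the numbered chromosomes only, removed no peak. Those values could not move and say nothing about stability. Among the 21, a central stretch of 20%, gaps of 1 kb and 100 kb, and the middle 33.3% of the chromosomes measured another quantity. Higher length thresholds and a cut on the q-value could only lower the number of broad peaks. Those moves say nothing about stability either. Thresholds raised by 25 bp, to 300 bp and to 400 bp left 875, 594 and 137 broad peaks. The 300 bp threshold put the share of broad peaks on chromosome 10, again the highest, at 10.8%, central summits at 36.9%, the summit distance at 20.8% or 74 bp, and broad peaks with a neighbour within 10 kb at 21.5%. Peaks at or above the median −log10 q-value of 3.89 included 678 broad ones, with a median pileup of 18.1, a median fold of 5.34, equal to that of short peaks, central summits in 59.1%, a summit distance of 12.6% or 40.5 bp, a median gap of 163322 bp and a neighbour within 10 kb in 15.3%. Gaps were measured anew among these peaks only. The short ones had a median gap of 212217 bp and a neighbour within 10 kb in 8.26%. In the whole list, a central stretch of 20% held 34.2% of broad summits. Neighbours within 1 kb and 100 kb were found for 3.91% and 55.1% of broad peaks. Without peaks of 8-fold or more, and with gaps again measured anew, 15.9% of broad peaks had a neighbour within 10 kb. The middle 33.3% of the chromosomes held 27.0% of broad peaks. Leaving out a replicate could not be done, since the list holds no value per library. No paired analysis was possible because no result comes from a test between libraries. The lowest broad pileup was 8 steps, which limits the precision of weak single peaks.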

Other observations

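Besides the 9 pairs described, 9 more pairs of neighbouring peaks at 8-fold or more lay within 10 kb of each other, chosen after their values were seen. Of these, 3 shared a peak with the 9. Among the other 6, chr1:205713639-205714146 and chr1:205716706-205717276 had a gap of 2559 bp, close to that of the 9, but nearly equal pileups of 39.0 and 41.8. On chromosome 4, chr4:5541136-5541477 and chr4:5545552-5545917 both had a pileup of 36.1 and 16.0-fold enrichment, across a gap of 4074 bp. On chromosome 8, chr8:162878764-162879039 and chr8:162882268-162882954 had pileups of 38.0 and 47.5 across 3228 bp.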
